A study of Mus with 21 samples.

Results

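Counts on 8 transcripts that take reads resembling ribosomal RNA (rRNA), namely *Gm42418*, *CT010467.1*, *AY036118*, *Gm26917*, *Mir6236*, *Gm15564*, *Gm24187* and *Gm23935*, and on the protein-coding gene *Lars2*, were followed across the embryonic brain libraries of a study of the cohesin regulators *Nipbl* and *Wapl*. These 9 genes were picked by name from the 55335 genes of the count table, and all 9 passed the filter on low counts that left 30552 genes for testing. They were picked because earlier work on these counts had found them highly variable, so their levels are given as a description. The question asked of them is whether they follow genotype or single libraries.

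The libraries were made from oligo(dT)-purified RNA of whole brains of female mouse embryos at E17.5. *WT* embryos (*Wapl* +/+; *Nipbl* +/+, n = 5) were compared with *Wapl* Δ/+ embryos (n = 7), *Nipbl* +/− embryos (n = 3) and embryos heterozygous at both genes (double heterozygotes, n = 6). The *Wapl* Δ allele lacks the promoter and the first exons and was made with *E2a-Cre*. The *Nipbl* − allele came from *Nipbl* Flox/+ sires in which *Stra8-icre* acts in the male germ line. The labels number the libraries within each genotype and do not give litters, so *P* values measure the spread between these libraries.

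In mammals, RNA polymerase I transcribes a long precursor from tandem rDNA repeats, and this precursor is cut into the RNAs of the small and large ribosomal subunits. These RNAs make up most of the RNA of a cell and carry no regular poly(A) tail, so oligo(dT) purification removes most of them. Some copies of rRNA sequence lie outside the repeats under gene names of their own, and reads from rRNA that stays in a library can be placed on them. *Lars2* encodes the mitochondrial leucyl-tRNA synthetase, which charges leucine onto mitochondrial tRNA, and *Lars* encodes the cytosolic enzyme. The table gives 1 count per gene and library, so the position of the reads within *Lars2* or any other member was not tested.

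Of the 9 members, 5 matched the RefSeq gene table for GRCm38.p6. *Gm42418* is listed there as the pseudogene *Rn18s-rs5*, a small-subunit rRNA related sequence at chr17:39846354-39848202. *AY036118* is a long noncoding RNA at chr17:39848112-39898385 and shares 91 bases with *Gm42418*. *Mir6236*, annotated as a microRNA, lies at chr9:110281287-110281409 inside the noncoding gene *Gm39429*. *Gm15564* is a long noncoding RNA at chr16:35966751-35983329, where 5871 of its bases overlap *Parp9* and 42 overlap *Kpna1*. *Lars2* spans chr9:123366927-123462675 and shares 8819 bases with the long noncoding RNA *Gm46137*. The strand setting and the treatment of reads that map to several places are not given in the sources used here, so the division of reads among members of like sequence, and between overlapping genes, is uncertain.

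Together the 9 members took from 0.108% of the counts of a library (*Wapl* Δ/+ replicate 4, exact 95% binomial interval 0.107 to 0.109%) to 1.99% (*Nipbl* +/− replicate 3, interval 1.986 to 1.996%), an 18.4-fold range. Such intervals cover counting error only. Among *WT* libraries the share was 0.146% in replicate 1 and 0.738, 0.835, 0.899 and 0.896% in replicates 2 to 5. Only *Wapl* Δ/+ replicate 4 lay below *WT* replicate 1, while the other 4 *WT* libraries stood close together. Among *Nipbl* +/− libraries the share was 0.415, 0.391 and 1.99%, so that 1 embryo held both the highest share of its genotype and that of the series. *Wapl* Δ/+ libraries ran from 0.108 to 0.737% (median 0.200%) and double heterozygotes from 0.226 to 1.001% (median 0.339%). Each mutant genotype overlapped *WT*, but *Wapl* Δ/+ did so only through *WT* replicate 1, since its highest share (0.737%) lay just below *WT* replicate 2 (0.738%). In bulk tissue, a change in the cells present and a change of RNA per cell cannot be told apart. How much rRNA the oligo(dT) purification left in each library is not given, and its part in these shares was not tested.

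**Figure D1:**
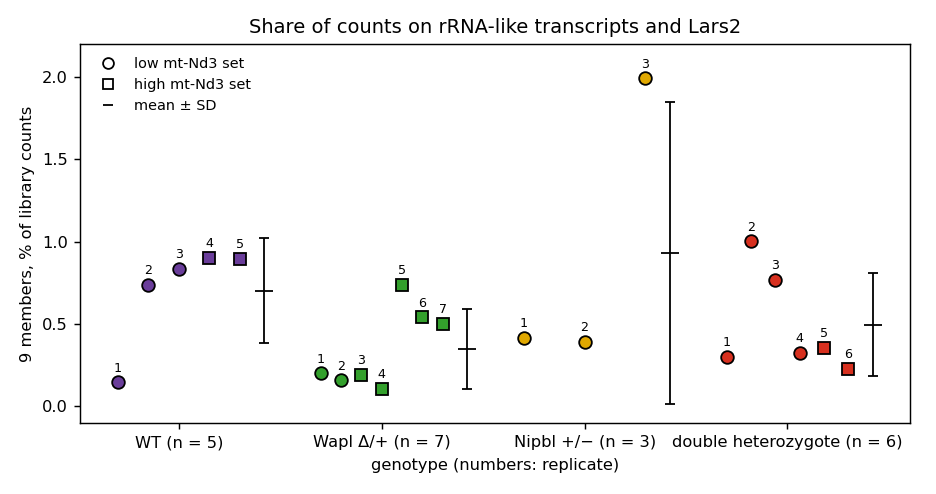
Percent of each library's counts that fell on the 9 members (y axis), by genotype (x axis), with replicate numbers above the points, circles and squares for the libraries with few and many *mt-Nd3* counts, and the mean ± SD beside each group. The points run from 0.108% to 1.99%; *WT* replicate 1 sits far under the other *WT* libraries and *Nipbl* +/− replicate 3 far above all others.

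The libraries themselves were similar in depth, with 25682566 to 35818767 counts on genes. *Nipbl* and *Wapl*, the mutated genes, were lower than in every *WT* library in each genotype that carries their mutation. The mitochondrial gene *mt-Nd3* splits them into a high set of 9 libraries with 52 to 106 counts and a low set of 12 with 0 to 6, which holds all *Nipbl* +/− libraries. Among libraries with the *Wapl* deletion, the low set holds those with it written first and the high set those with it written second. In these libraries the set and the written order cannot be told apart. Both sets held low and high members. In the low set the share of counts on the members was 0.146 to 0.835% in 3 *WT* libraries, 0.157 and 0.200% in 2 *Wapl* Δ/+ libraries and 0.301 to 1.001% in 4 double heterozygotes, whereas in the high set it was 0.896 and 0.899% in 2 *WT* libraries, 0.108 to 0.737% in 5 *Wapl* Δ/+ libraries and 0.226 and 0.355% in 2 double heterozygotes.

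Most of the members' counts fell on *Gm42418*, *CT010467.1* and *AY036118*, which together held 89.7 to 94.5% of them. *Gm42418* stood at 428, 2107, 2398, 2593 and 2610 CPM (counts scaled to a common library size with TMM factors) in *WT* replicates 1 to 5. *WT* replicate 1 was the only low *WT* library. In *Nipbl* +/− replicates 1 to 3 its level was 1167, 1121 and 5781 CPM. In *Wapl* Δ/+ brains the lowest, median and highest levels were 308, 556 and 2071 CPM, with replicates 1 to 4 between 308 and 556 CPM and replicates 5 to 7 at 1414 CPM or above. In double heterozygotes they were 632, 953 and 2886 CPM, with replicates 2 and 3 at 2198 CPM or above and the other 4 at 979 CPM or below. The highest library of a genotype stood at 6.09 times its lowest in *WT*, 6.72 times in *Wapl* Δ/+, 5.15 times in *Nipbl* +/− and 4.56 times in double heterozygotes. The group means were 2027 ± 917 CPM (SD, n = 5) in *WT*, 984 ± 682 CPM (SD, n = 7) in *Wapl* Δ/+, 2690 ± 2677 CPM (SD, n = 3) in *Nipbl* +/− and 1412 ± 910 CPM (SD, n = 6) in double heterozygotes.

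*CT010467.1* and *AY036118* repeated this order library by library, with a Spearman rho of 1 for each pair of the 3 genes over the 21 libraries. *CT010467.1* held between 135 and 140% of the counts of *Gm42418* in the same library (coefficient of variation 0.922%) and *AY036118* between 84.7 and 89.6% (coefficient of variation 1.51%). The ratio among these transcripts was thus nearly fixed while their level moved 18.8-fold, 18.9-fold and 19.8-fold.

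The less abundant members followed the same libraries more loosely. *Mir6236* ranged from 7.04 to 154 CPM, *Gm26917* from 14.7 to 146 CPM, *Gm15564* from 2.04 to 45.3 CPM, *Gm24187* from 1.28 to 32.5 CPM and *Gm23935* from 5.58 to 112 CPM. The fewest counts behind any of these values were 45, for *Gm24187* in *WT* replicate 1 and in *Wapl* Δ/+ replicate 4. For 7 of the 9 members the lowest library was *Wapl* Δ/+ replicate 4 and the highest *Nipbl* +/− replicate 3. The exceptions were *Gm24187*, lowest in *WT* replicate 1, and *Gm23935*, highest in *Wapl* Δ/+ replicate 5. Relative to *Gm42418*, *Gm23935* stood at 5.40% in *Wapl* Δ/+ replicate 5 and at 1.36 to 3.08% in the other 20 libraries, so that library was high for this transcript beyond its level of the others. The ratios of *Gm26917*, *Mir6236*, *Gm15564*, *Gm24187* and *Lars2* to *Gm42418* were each highest in *Wapl* Δ/+ replicate 1.

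**Figure D2:**
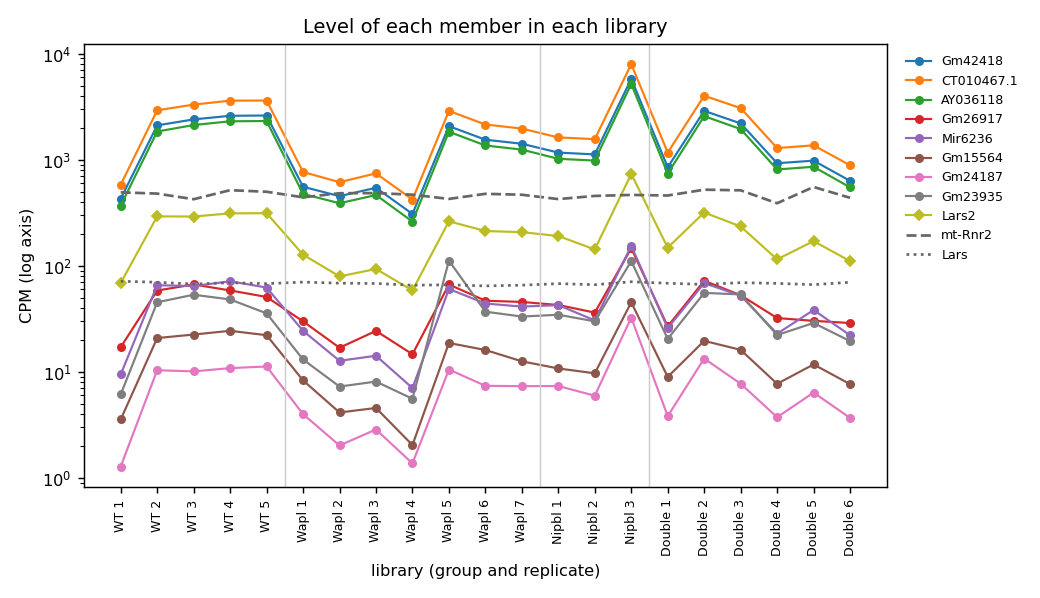
Level of each member (solid lines, CPM on a log axis) in each of the 21 libraries (x axis, by genotype and replicate), with mitochondrial rRNA *mt-Rnr2* (dashed) and cytosolic synthetase *Lars* (dotted) for comparison. The members fall and rise together, lowest in *Wapl* Δ/+ replicate 4 or *WT* replicate 1 and mostly highest in *Nipbl* +/− replicate 3, while *Lars* stays between 64.6 and 71.5 CPM.

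Over the 36 pairs of members, Pearson's r of log2 CPM was 0.925 to 0.99998 (median 0.970) and Spearman's rho 0.914 to 1 over the 21 libraries, which the members of a pair share. Without *Wapl* Δ/+ replicate 4 and *Nipbl* +/− replicate 3, the libraries farthest from the median level, r was at least 0.905. After each value was set against its group mean, r remained between 0.926 and 0.99998, so the members also moved together among embryos of the same genotype. Within the low *mt-Nd3* set r was at least 0.949, and within the high set at least 0.886.

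*Lars2* behaved as the noncoding members did. It stood at 68.9, 292, 291, 312 and 313 CPM in *WT* replicates 1 to 5 and at 191, 143 and 734 CPM in *Nipbl* +/− replicates 1 to 3. The lowest, median and highest levels were 58.6, 127 and 263 CPM in *Wapl* Δ/+ brains and 111, 160 and 318 CPM in double heterozygotes. *WT* replicate 1 was again the low *WT* library and *Nipbl* +/− replicate 3 the high library of the series, and all genotypes overlapped. Against *Gm42418*, *Lars2* had an r of 0.980 and a rho of 0.982 on the log2 scale (n = 21 libraries, r = 0.971 without the 2 farthest, 0.971 in the low and 0.996 in the high *mt-Nd3* set).

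*Lars2* rose less steeply than *Gm42418*, with a slope of 0.79 on the log2 scale (0.75 to 0.81 when each library was left out in turn). Of the other rRNA-like transcripts, *Gm26917* had a lower slope (0.71) and the remaining 6 had slopes of 0.94 to 1.05. Its counts made up 10.7 to 22.9% of those of *Gm42418*, with the larger ratios mainly in libraries with little *Gm42418*. A straight line through the 21 libraries gave 11.5 CPM of *Lars2* for each 100 CPM of *Gm42418*, and 29.96 CPM of *Lars2* where *Gm42418* would be 0. This intercept was 26.3 to 45.8 CPM when each library was left out in turn, and it lies outside the range of the data, in which the lowest *Lars2* level was 58.6 CPM.

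No other mitochondrial aminoacyl-tRNA synthetase, the enzymes that charge the mitochondrial tRNAs, varied in this way. *Lars2* ranged 12.5-fold over the libraries, whereas the other 16 ranged from 1.14-fold (*Iars2*) to 1.62-fold (*Mars2*), and the cytosolic *Lars* 1.11-fold. The rho of these 16 genes with the mean standardised level of the 8 rRNA-like transcripts (the rRNA-like level) was -0.26 (*Yars2*) to 0.43 (*Rars2*), and that of *Lars* -0.09, against 0.97 for *Lars2*.

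**Figure D3:**
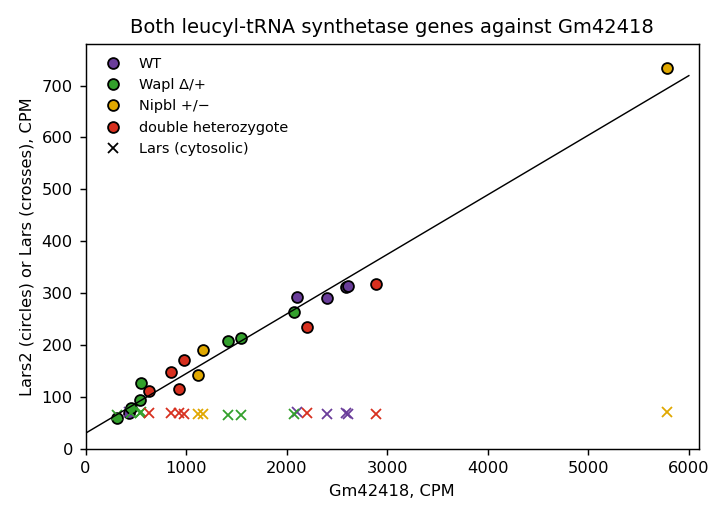
CPM of *Lars2* (circles, coloured by genotype) and of *Lars* (crosses) against CPM of *Gm42418* in the 21 libraries, with the straight line for *Lars2*. *Lars2* climbs from 58.6 to 734 CPM as *Gm42418* goes from 308 to 5781 CPM, and *Lars* stays between 64.6 and 71.5 CPM.

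With all 21 libraries included, genotype accounted for no more of this variation than it did for the median gene. Of the variance of log2 CPM over the 21 libraries, genotype took 15.7% (*Gm23935*) to 22.1% (*AY036118*), against a median of 22.2% over 17303 genes that averaged 1 CPM or more. For comparison it took 96.8% for *Wapl* and 97.2% for *Nipbl*. The SD within genotypes was 0.79 (*Gm26917*) to 1.24 (*Gm23935*) on the log2 scale, where the median gene had 0.102, and between 14 and 46 of the 17303 genes varied more than a given member. Single libraries moved these shares. Genotype took 25.4 to 36.3% without *WT* replicate 1 and 10.1 to 19.5% without *Nipbl* +/− replicate 3. The share of the median gene was not computed without these libraries.

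In each comparison with *WT*, none of the 9 members passed an adjusted *P* of 0.10 in edgeR's quasi-likelihood test over all 30552 genes, nor in DESeq2. Of all genes tested, 11.2% were called in *Nipbl* +/−, 2.22% in *Wapl* Δ/+ and 3.28% in double heterozygotes. At an unadjusted *P* below 0.05, edgeR's count of members was 0 in *Nipbl* +/−, 6 in *Wapl* Δ/+ and 0 in double heterozygotes, where 20, 15.6 and 13.5% of all genes reached it. Since the members move together, the 6 are not separate events. No member's mutant libraries separated from *WT*, where 13.4, 1.2 and 2.76% of genes tested did so in the same 3 comparisons. The comparisons share the *WT* libraries.

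In *Nipbl* +/− brains all 9 log2 fold changes were above 0 (0.22 to 0.79, median 0.46), where the median of all genes was -0.0086. For *Gm42418* the log2 fold change was 0.40 (95% interval -0.59 to 1.38, edgeR adjusted *P* = 0.717) and for *Lars2* 0.47 (-0.41 to 1.35, adjusted *P* = 0.614). The direction rested on 1 embryo. Without *Nipbl* +/− replicate 3 all 9 turned below 0, with *Gm42418* at -0.82 and *Lars2* at -0.61, and the 9 ran from -0.86 (*Gm15564*) to -0.22 (*Gm23935*). *Gm15564* also turned, to -0.05, without *WT* replicate 1. With no filter on low counts, edgeR called 5 of the members (*Gm26917*, *Mir6236*, *Gm24187*, *Gm23935* and *Lars2*) at nearly the same fold changes, with *Lars2* at 0.48 (adjusted *P* = 0.0345). The share of all genes called with no filter is not set beside these 5. Over the settings other than leaving out a library, 1658 to 4058 genes were called in *Nipbl* +/−.

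In *Wapl* Δ/+ brains all 9 log2 fold changes were below 0 (-1.05 to -0.31, median -0.92, against -0.0034 over all genes). For *Gm42418* it was -1.04 (95% interval -1.90 to -0.19, edgeR adjusted *P* = 0.220), for *AY036118* -1.05 (adjusted *P* = 0.223) and for *Lars2* -0.78 (-1.47 to -0.09, adjusted *P* = 0.255). *Gm23935* had the smallest difference, -0.31 (adjusted *P* = 0.844), and it went to -1.11 without *Wapl* Δ/+ replicate 5 and to -0.12 without replicate 4. All 9 stayed below 0 when each library was left out in turn. Of the 7 *Wapl* Δ/+ libraries, 6 lay within the *WT* range for *Gm42418*, a range that *WT* replicate 1 extends downward. All 7 lay below *WT* replicates 2 to 5 for *Gm42418* (at most 2071 CPM, against at least 2107 CPM). The same held for *Lars2* (at most 263 CPM, against at least 291 CPM), but not for *Gm26917*, *Gm24187* and *Gm23935*. Without *WT* replicate 1 the log2 fold change was -1.03 for *Lars2* and -1.26 for *Gm15564*, with no member called.

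In double heterozygotes the log2 fold changes ran from -0.63 to -0.16 (median -0.50, against 0.0007 over all genes). *Gm42418* stood at -0.52 (95% interval -1.31 to 0.28, edgeR adjusted *P* = 0.611) and *Lars2* at -0.47 (-1.09 to 0.14, adjusted *P* = 0.525). Single libraries moved these values, to -0.86 and -0.71 without double-heterozygote replicate 2 and to -0.78 and -0.72 without *WT* replicate 1. *Gm15564* was the only member called in any leave-one-out fit, at -0.90 (edgeR adjusted *P* = 0.0338) without *WT* replicate 1. Over all genes, the leave-one-out fits of double heterozygotes called 454 to 2504. Within the low *mt-Nd3* set, with 4 double heterozygotes and 3 *WT* libraries, *Gm42418*, *CT010467.1*, *AY036118* and *Gm23935* stood above 0, by 0.06 to 0.14.

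Over all 4 genotypes edgeR called none of the members, against 4.12% of all genes, with 2 members (*Gm24187* and *Lars2*) at an unadjusted *P* below 0.05, which 17.1% of all genes reached. For the interaction of the mutations edgeR called no member and 0% of all genes, although 4221 genes had an unadjusted *P* below 0.05, none of them a member, and DESeq2 called 793 genes and no member. The interaction estimates of the members ran from -0.51 (*Gm23935*) to 0.11 (*Gm15564*). For *Gm42418* the 95% interval was -1.45 to 1.64, a wide interval that covers 0 and large differences in both directions.

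**Figure D4:**
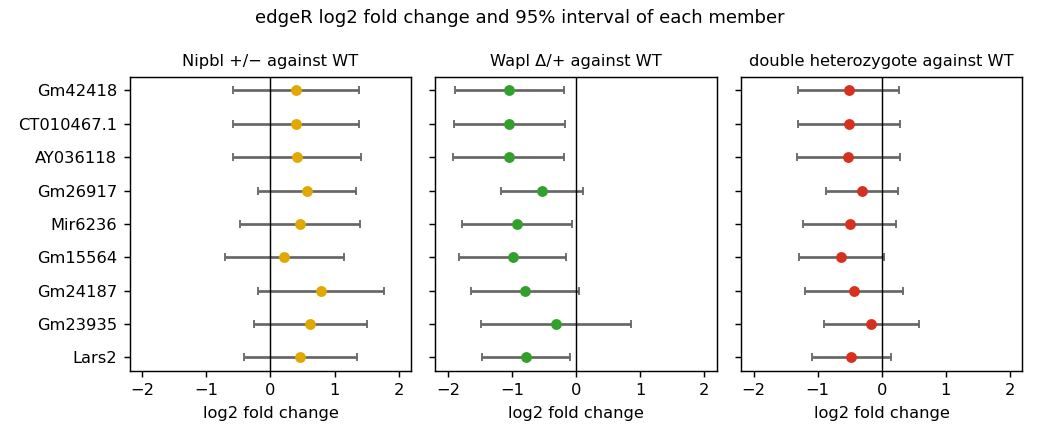
Log2 fold change (x axis) of each member against *WT* in the 3 mutant genotypes, from edgeR, with bars for the 95% interval. Points lie at 0.22 to 0.79 for *Nipbl* +/−, -1.05 to -0.31 for *Wapl* Δ/+ and -0.63 to -0.16 for double heterozygotes, and no member passed an adjusted *P* of 0.10.

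Genes outside the 9 were then ranked by how closely they followed the rRNA-like level over the 21 libraries, among 17294 genes that averaged 1 CPM or more. The 5 nearest were *Rn7sk* (rho 0.977), *Gm24270* (0.974), *Tsix* (0.966), *Gm37376* (0.913) and *Malat1* (0.9), and 4 genes in all exceeded 0.9. The same 5 were nearest to *Lars2*, led by *Gm24270* at 0.979. Within the *mt-Nd3* sets, Pearson's r of the 5 with the rRNA-like level was 0.926 to 0.987 (low) and 0.878 to 0.984 (high). *Rn7sk* is a small nuclear RNA made by RNA polymerase III that holds the elongation factor P-TEFb inactive, and it has no poly(A) tail. *Tsix* is transcribed antisense to *Xist*, the RNA that coats the inactive X chromosome. *Malat1* is a long nuclear RNA whose mature 3′ end is a folded structure and not a poly(A) tail.

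*Rn7sk* stood at 0.741, 3.88, 4.68, 4.56 and 5.08 CPM in *WT* replicates 1 to 5 and at 2.59, 2.29 and 10.7 CPM in *Nipbl* +/− replicates 1 to 3, with 12 to 317 counts per library and a 29.2-fold range. These are the same low and high libraries as for *Gm42418*. *Gm24270* ranged 21.2-fold, *Tsix* 8.37-fold, *Malat1* 3.07-fold and *Gm37376* 2.73-fold. *Xist* covers part of the span of *Tsix* and ranged 1.40-fold, with a rho of 0.30; without the strand setting, reads of this pair cannot be told apart. In the comparisons with *WT*, *Malat1* was the only one of the 5 called, in *Wapl* Δ/+ brains (log2 fold change -0.43, edgeR adjusted *P* = 0.0764), and the call was lost without any one of *WT* replicates 2 to 5 or *Wapl* Δ/+ replicates 1 and 4 (edgeR adjusted *P* = 0.102 to 0.235).

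**Figure D5:**
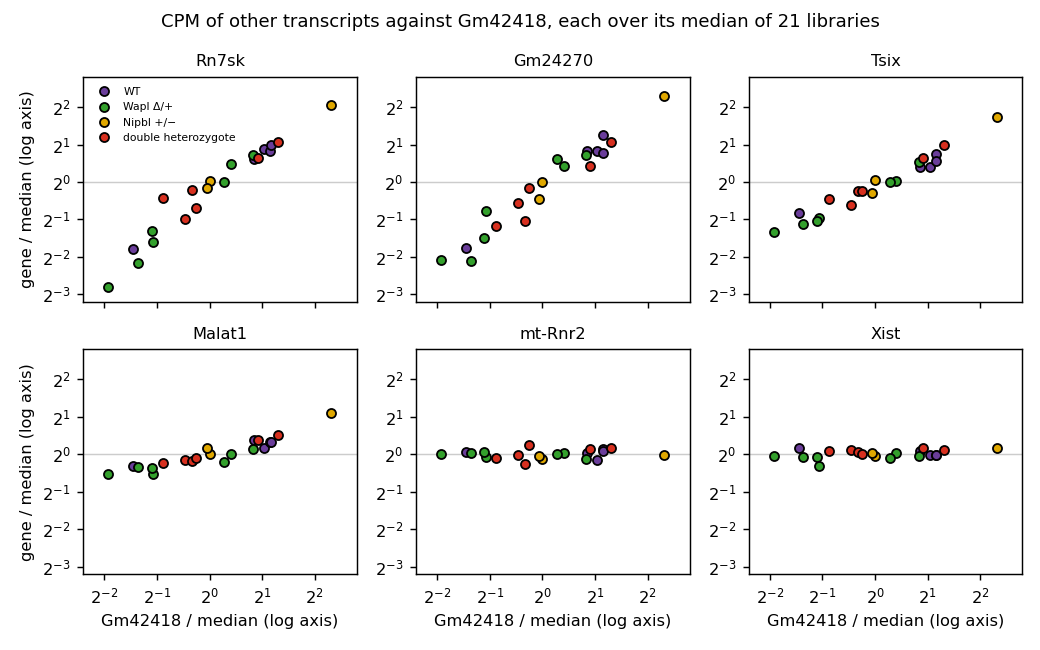
Level of *Rn7sk*, *Gm24270*, *Tsix*, *Malat1*, *mt-Rnr2* and *Xist* (y axes) against *Gm42418* (x axes) in 21 libraries, each divided by its median over the libraries, on log2-spaced axes and coloured by genotype. *Rn7sk* and *Gm24270* range 29.2-fold and 21.2-fold along with *Gm42418*, *Malat1* 3.07-fold, and *mt-Rnr2* and *Xist* 1.42-fold and 1.40-fold.

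Of a list of 27 RNAs made without a poly(A) tail, 22 were in the table and 13 had enough counts to be tested, and edgeR and the threshold of 0.10 called none of them against *WT* (0, 2 and 2 at an unadjusted *P* below 0.05 in *Nipbl* +/−, *Wapl* Δ/+ and double heterozygotes, where 20, 15.6 and 13.5% of all genes reached it). *Rmrp*, the RNA of an endonuclease that acts in rRNA processing, ranged from 0.0612 to 1.52 CPM with a rho of 0.87 to the rRNA-like level, and the next were *Scarna2*, a small Cajal body RNA, at 0.66, *Rpph1*, the RNA of RNase P, at 0.51, *Rny3* at 0.50 and *Vaultrc5*, a vault RNA, at 0.45. Leaving *Rn7sk* aside, the other 7 ran from -0.32 (*Terc*, the telomerase RNA) to 0.37 (*Rn7s2*). All 13 but *Rn7sk* averaged below 1 CPM. The mitochondrial rRNAs, which mitochondrial polymerase makes and which carry short A tails, ranged 1.63-fold (*mt-Rnr1*, rho 0.51) and 1.42-fold (*mt-Rnr2*, rho 0.09).

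Genes for making rRNA were not among those that followed the members. Among 38 genes of RNA polymerase I, its factors and early ribosome assembly, the rho with the rRNA-like level was -0.48 (*Cd3eap*) to 0.35 (*Rrp12*), with a median of -0.09 against -0.05 over all 17294 genes. In *Nipbl* +/− brains 2 of the 38 rose, *Polr1c*, a subunit shared by RNA polymerases I and III (log2 fold change 0.16, edgeR adjusted *P* = 0.0910), and *Ubtf*, the factor that binds rDNA (0.12, adjusted *P* = 0.0349), and *Heatr1*, a small-subunit assembly factor, fell (-0.19, adjusted *P* = 0.0403), where 4.25% of all genes tested were called higher and 6.96% lower. In *Wapl* Δ/+ brains *Polr1c* rose (0.15, edgeR adjusted *P* = 0.0870), with 0.769% of all genes higher and 1.45% lower. In double heterozygotes 0 of the 38 passed the edgeR test, where 0.812% of all genes were called higher and 2.46% lower. At an unadjusted edgeR *P* below 0.05 there were 5 of the 38, where 13.5% of all genes reached it. Of the 17 mitochondrial synthetases, *Mars2* was the only one called, in *Nipbl* +/− brains (-0.27, edgeR adjusted *P* = 0.0267).

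Other features of the libraries moved with the rRNA-like level to some extent. Over the 21 libraries the rho was 0.59 for the number of genes with a count, -0.41 for the total count, -0.44 for the share of counts on mitochondrial genes and 0.0026 for the TMM factor, and their part in the members' levels was not tested. All 6 markers in each of 7 lists for neurons, radial glia, blood, meninges, choroid plexus, microglia and endothelium were present in every library, with none at 0. The summed level of a list had a rho of -0.36 (neurons, 5040 to 5737 CPM) to 0.23 (choroid plexus, 392 to 950 CPM) with the rRNA-like level, and their part was not tested either. In *Nipbl* +/− brains edgeR called 4 of the 6 microglia markers lower, *P2ry12* (log2 fold change -0.69), *Cx3cr1* (-0.59), *C1qb* (-0.35) and *Csf1r* (-0.20). Of the radial glia markers, *Slc1a3* (-0.37) and *Fabp7* (-0.26) fell and *Sox2* (0.22) rose. From the other lists, *Snap25* (-0.15), *Ptgds* (-0.41) and *Slco1c1* (-0.20) fell and *Hbb-y* (1.43) rose in the same comparison. *Hbb-y* went against its list, where 5 of the 6 blood markers lay below 0. Of the 6 meninges markers, 3 lay above 0 and 3 below. Of all genes tested in *Nipbl* +/−, 4.25% were called higher and 6.96% lower. In *Wapl* Δ/+ brains *Col1a1* (0.62) and *Col1a2* (0.38) of the meninges rose, where 0.769% of all genes were called higher. In double heterozygotes *Slc1a3* (-0.26) and *Cx3cr1* (-0.40) fell, where 2.46% of all genes were called lower. There, 3 of the 6 radial glia markers lay above 0 and 3 below, and 1 of the 6 microglia markers lay above 0 and 5 below.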

How the data were processed

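Poly(A) RNA-seq of E17.5 whole brain was analysed for 21 libraries. The authors used cutAdapt 2.4 to trim the reads, STAR 2.5.3a to align them to mm10 (GRCm38.p6) and featureCounts of Subread 1.6.4 for counts per gene, which were deposited raw. The annotation release, strand setting and treatment of multiply mapped reads are not given in the sources used here. A further *Nipbl* +/− library that the authors excluded was not analysed here.

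Groups and replicate numbers came from the sample labels. In R 4.3.3, the quasi-likelihood test of edgeR 4.0.16 with TMM scaling was run on the groups of each comparison, over genes with at least 10 normalised counts summed over the libraries. The Benjamini-Hochberg threshold for a call was 0.10. Levels are CPM on TMM-scaled library sizes, and log2 CPM used a prior count of 2. The rRNA-like level is the mean over the 8 transcripts of standardised log2 CPM. The members and gene lists were chosen with earlier results of these data known, so the members' tests are no independent evidence. Genes named are the members, the mutated genes, *mt-Nd3*, the mitochondrial rRNAs, the 5 nearest by Spearman rho to the rRNA-like level and to *Lars2*, and called genes of the gene and marker lists (at most 2 highest and 2 lowest per list and comparison). *Xist*, *Lars*, *Rmrp*, *Scarna2*, *Rpph1*, *Rny3*, *Vaultrc5* and the extremes of ranges were named after their values were seen. Alternatives were DESeq2 1.42.0, its size factors, scaling without the members, other filters and a threshold of 0.05, the *mt-Nd3* set as a term or a subset, a replicate block, one fit of all genotypes and leaving out each library. The edgeR test was checked on simulated data. Coordinates came from RefSeq for GRCm38.p6. No sequences were available, so none are shown. Among 49 pairs of libraries of the same genotype, the chi-square of counts over its degrees of freedom was at least 2.41, so no library was counted as a repeat of another.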

Additional observations from a re-analysis of the deposited data

Results flagged for a closer look

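In a group of 4 to 10 libraries, Dixon's test marks a library that lies far from the rest for its group's range. Of 27 combinations of member and genotype, 8 were marked. *WT* replicate 1 was far below the other 4 *WT* libraries for 7 members, with 428 CPM of *Gm42418*, 581 CPM of *CT010467.1*, 370 CPM of *AY036118*, 9.46 CPM of *Mir6236*, 3.56 CPM of *Gm15564*, 1.28 CPM of *Gm24187* and 68.9 CPM of *Lars2*. *Wapl* Δ/+ replicate 5 was far above the other 6 *Wapl* Δ/+ libraries for *Gm23935*, with 112 CPM. For genes not picked for their spread, chance marks about 1 in 20 groups. The members were picked as highly variable on these same counts, so that share does not apply to them and their marks are a description. They also share libraries and move together, so the 7 marks on *WT* replicate 1 are not separate events. *Nipbl* +/− replicate 3 could not be tested in this way, since its group holds 3 libraries.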

How the results depend on the processing

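The fold changes of the 9 members were read in 18 settings for *Nipbl* +/−, 23 for *Wapl* Δ/+ and 22 for double heterozygotes. Sign and side of the threshold were kept in 145 of 162 such values, 200 of 207 and 192 of 198, in that order. Since the members move together, these values are not separate events. The number of members called stayed at 0 except with no filter in *Nipbl* +/− (5), with the replicate block in *Nipbl* +/− (2) and *Wapl* Δ/+ (7), and without *WT* replicate 1 in double heterozygotes (0 to 1 over single libraries left out). Calls over all genes changed with the setting too, so these counts alone are no result about the members. Without *Nipbl* +/− replicate 3, log2 fold changes in *Nipbl* +/− turned to -0.82 (*Gm42418*), -0.81 (*CT010467.1*), -0.84 (*AY036118*), -0.34 (*Gm26917*), -0.57 (*Mir6236*), -0.86 (*Gm15564*), -0.38 (*Gm24187*), -0.22 (*Gm23935*), -0.61 (*Lars2*), -0.62 (*Rn7sk*) and -0.10 (*Malat1*), against highest values over left-out libraries of 0.77, 0.76, 0.78, 0.90, 0.84, 0.58, 1.18, 0.94, 0.85, 0.80 and 0.50 in the same order. *Gm15564* turned to -0.05 without *WT* replicate 1. In double heterozygotes, the low *mt-Nd3* set alone turned *Gm42418* to 0.065, *CT010467.1* to 0.073, *AY036118* to 0.074, *Gm23935* to 0.14, *Rn7sk* to 0.065 and *Malat1* to 0.094, and the replicate block turned *Gm23935* to 0.048. The causes were not tested.

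Calls over all genes moved more. For *Nipbl* +/− there were 3422, against 1893 with the block, 1658 in one fit of all genotypes, 1881 in the low set and 1828 (without *Nipbl* +/− replicate 1) to 4788 (without *Nipbl* +/− replicate 2) over left-out libraries. For *Wapl* Δ/+ there were 677, against 1446 by DESeq2, 181 at 0.05, 305 with the *mt-Nd3* term, 1991 with the block, 7 in one fit, 47 in the low and 278 in the high set, and 9 (without *WT* replicate 2) to 1534 (without *Wapl* Δ/+ replicate 2) over left-out libraries. For double heterozygotes there were 1001, against 547 at 0.05, 535 with the block, 602 in one fit, 1 in the high set, and 454 (without *WT* replicate 4) to 2504 (without double-heterozygote replicate 5). Over all genotypes there were 1260, against 2435 by DESeq2, 692 at 0.05, 750 with the *mt-Nd3* term, and 764 (without *Nipbl* +/− replicate 1) to 2117 (without double-heterozygote replicate 5). For the interaction edgeR called 0, DESeq2 793, and 0 to 945 (without double-heterozygote replicate 6) over left-out libraries.

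The labels do not say whether equal replicate numbers pair the libraries. Of 25 same-numbered pairs, deviations from the group means correlated at -0.21 to 0.37, 7 of them above 0.1. The pairs of replicate 1 between mutant genotypes stood at 0.23 to 0.37, and those with *WT* at -0.05 to 0.04. In no comparison with *WT* did every library correlate best with its own number, which cannot decide whether only some libraries are paired. With the number as a block, log2 fold changes in *Wapl* Δ/+ were -1.50 for *Gm42418* (edgeR adjusted *P* = 0.0172) and -1.08 for *Lars2* (0.0495), and in *Nipbl* +/− the called members were *Gm24187* (0.99, 0.0783) and *Gm23935* (0.85, 0.0921). Calls over all genes with the block are given in the paragraph above. Between 45 and 236516 counts lay behind each member's value, so the spread between libraries, not counting error, limits these comparisons.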
